A study of Homo sapiens with 3 samples.

Results

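Bone morphogenetic proteins (BMPs) are secreted ligands that bind pairs of serine/threonine kinase receptors. The receptors phosphorylate SMAD1, SMAD5 and SMAD9, which enter the nucleus with SMAD4 and switch on targets such as the ID genes. ID proteins lack a DNA-binding region and hold basic helix-loop-helix factors away from DNA. The pathway is checked outside the cell by secreted antagonists, at the membrane by the decoy receptor BAMBI, and inside by the inhibitory SMADs, SMAD6 and SMAD7. In the colon crypt BMP signalling is known to be low at the base and high towards the surface, where it goes with differentiation.

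Here 10 genes of this pathway were followed out of 18639 genes on the array: the ligands BMP2, BMP4 and BMP7, the secreted antagonist SOSTDC1, the decoy receptor BAMBI, the targets ID1, ID2 and ID3, and the inhibitory SMADs. They were chosen by gene symbol in the platform annotation, which gave 13 of 24460 gene probes, and with the signal ratios of these same 3 arrays already known. Their values are therefore a description. HT29 is an established human colorectal cancer line, known to carry inactivating mutations of APC and of SMAD4, the partner SMAD that BMP and TGF-beta signals share. HT29 cells were kept for 24 h with a linderapyrone derivative at 20 µM, with the same derivative at 5 µM, or with DMSO alone as control. Linderapyrone is a plant pyrone known as an inhibitor of Wnt signalling, and BMP4, ID2 and BAMBI are among the genes described as Wnt targets. Each group was 1 RNA sample on 1 array. No difference could be tested, and having a single array per group sets the precision of all that follows. In bulk RNA, fewer cells that express a gene and less RNA of it per cell cannot be told apart.

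The promoters of 3 of the genes are shown because 2 of them belong to genes at least 2-fold lower at 20 µM and the other, picked after the search, holds a rare SMAD motif. Each is the 250 bases before a RefSeq start in build GRCh38.p14, with motif matches in capitals. ID2 lies at chr2:8681806-8682055 on the plus strand, the first of 3 BMP4 promoters at chr14:53955051-53955300 on the minus strand, and SMAD6 at chr15:66701986-66702235 on the plus strand.
ID2: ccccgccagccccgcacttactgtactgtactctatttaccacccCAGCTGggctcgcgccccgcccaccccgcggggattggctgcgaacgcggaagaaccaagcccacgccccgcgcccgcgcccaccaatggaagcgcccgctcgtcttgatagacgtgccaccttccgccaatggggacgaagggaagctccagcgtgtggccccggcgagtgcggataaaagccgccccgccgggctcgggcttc
BMP4: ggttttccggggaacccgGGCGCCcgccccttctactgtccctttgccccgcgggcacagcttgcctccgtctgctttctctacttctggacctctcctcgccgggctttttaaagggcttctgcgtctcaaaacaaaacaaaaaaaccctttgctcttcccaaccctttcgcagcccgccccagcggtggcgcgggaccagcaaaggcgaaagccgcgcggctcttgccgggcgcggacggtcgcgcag
SMAD6: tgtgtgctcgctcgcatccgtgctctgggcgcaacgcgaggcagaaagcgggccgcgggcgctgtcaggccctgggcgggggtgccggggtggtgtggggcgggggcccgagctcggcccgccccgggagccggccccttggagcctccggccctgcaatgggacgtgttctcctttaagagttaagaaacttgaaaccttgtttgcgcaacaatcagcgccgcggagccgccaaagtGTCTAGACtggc

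Windows of 250 bases before to 50 after the start were searched on both strands for GGCGCC, a GC-rich SMAD site, for GTCTAGAC, the palindromic SMAD box, for CTTTGAT, a TCF/LEF core, and for CAGCTG, an E-box. The table held 11 such windows for 7 of the 10 genes, with 3 each for BMP4 and SMAD7; BMP2, BMP7 and SOSTDC1 were without one. The SMAD6 window held GTCTAGAC, beginning 12 bases before the start, a motif found in 0.202% of 35114 promoters of the same length. GGCGCC stood in the windows of BAMBI, with 3 matches, and in the BMP4 window above, with matches beginning 232 bases before and 1 base after the start. That motif occurred in 19.2% of all promoters. The ID2 window held 1 CAGCTG, a motif of 17.9% of promoters, and 0 of the 11 windows held CTTTGAT, found in 2.62%. None of these motifs overlaps another in the windows. These are matches of letters, not known binding sites.

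The 3 arrays detected between 85.6% and 86.2% of the gene probes, where detected means a spot signal above the mean plus 2 SD of the blank and negative control spots. That threshold was 82.5 with DMSO, 79.4 with 5 µM and 80.2 with 20 µM. Between 11.5% and 18.4% of the 2412 empty positions also passed it, and their 99th percentile was between 82.5 and 86.0, so signals just above the threshold carry little. The DMSO array was the brightest: before normalization, 2 positive controls had mean log2 ratios of -0.36 and -0.26 at 20 µM against DMSO, and of -0.47 and -0.33 at 5 µM. Of 8 colon epithelial markers, 7 had a named probe and all 7 were detected on the 3 arrays, with EPCAM at 7149 at 20 µM and CDX2 only at 87.3. Their summed signal, before normalization, was 68095 with DMSO, 51491 with 5 µM and 52067 with 20 µM. Most of it came from KRT18, at 56135, 43202 and 42073 in the same order. After normalization the 7 markers did not share a direction at 20 µM against DMSO. There 3 had log2 ratios above 0 and 4 below, from -0.48 for VIL1 to 0.92 for KRT20. Defining markers of other cells, COL1A1 and COL1A2 of fibroblasts, PTPRC of blood cells and PECAM1 of endothelium, were not detected on any array, while other markers of those cells were. DCN and LUM of fibroblasts were detected on all 3 arrays, with DMSO signals of 231 and 109.6, and COL3A1 lay near the threshold at 84.57. CD14 and CD3E of blood cells, at 146.3 and 87.95, and VWF and CDH5 of endothelium, at 99.74 and 85.34, were also detected on each array. In all, 3 or 4 of 6 fibroblast, 2 of 3 blood and 2 of 3 endothelial markers were detected per array, and the second DCN and CD3E probes on none. The summed signals of the 6 fibroblast markers lay between 633.5 and 668.5, those of the 3 blood markers measured between 282.2 and 315.5, and those of the 3 endothelial markers between 250.5 and 265.6. The part of any of these in the results was not tested.

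Spot signals were corrected with a constant of 50 added, taken to log2 and quantile normalized, and a difference is the log2 ratio of 2 normalized signals. The constant makes differences of dim genes look smaller than they are. Genes with a pair of detected probes gave a technical SD for 1 log2 ratio, which was 0.145 for 20 µM against DMSO, 0.111 for 5 µM against DMSO and 0.116 for 20 against 5 µM. It holds nothing of the spread between cultures. It also rose with signal level. At 5 µM against DMSO it was 0.0769 for the dimmest pairs and 0.142 for the brightest, above a log2 level of 6.954. At 20 µM against DMSO these values were 0.122 and 0.157, and for 20 against 5 µM 0.101 and 0.13. Multiples of the technical SD given below use all pairs. They are therefore too large for bright genes such as BMP4, ID1, ID2 and SMAD6, most of all at 5 µM.

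At 20 µM, 3 of the 9 genes that could be compared were at least 2-fold lower than in DMSO: SOSTDC1, BMP4 and ID2. Over all genes, 0.324% of 16062 were at least 2-fold lower and 0.442% at least 2-fold higher; since the genes were picked with these values known, nothing is read from that contrast. BMP2, ID1, SMAD6 and SMAD7 had smaller negative ratios, while BAMBI and ID3 lay slightly above 0. Together 7 of 9 were below 0, as were 47.1% of all genes, and the median was -0.33, beside 0.0071 over all genes. BMP7 was not detected on any array.

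**Figure D1:**
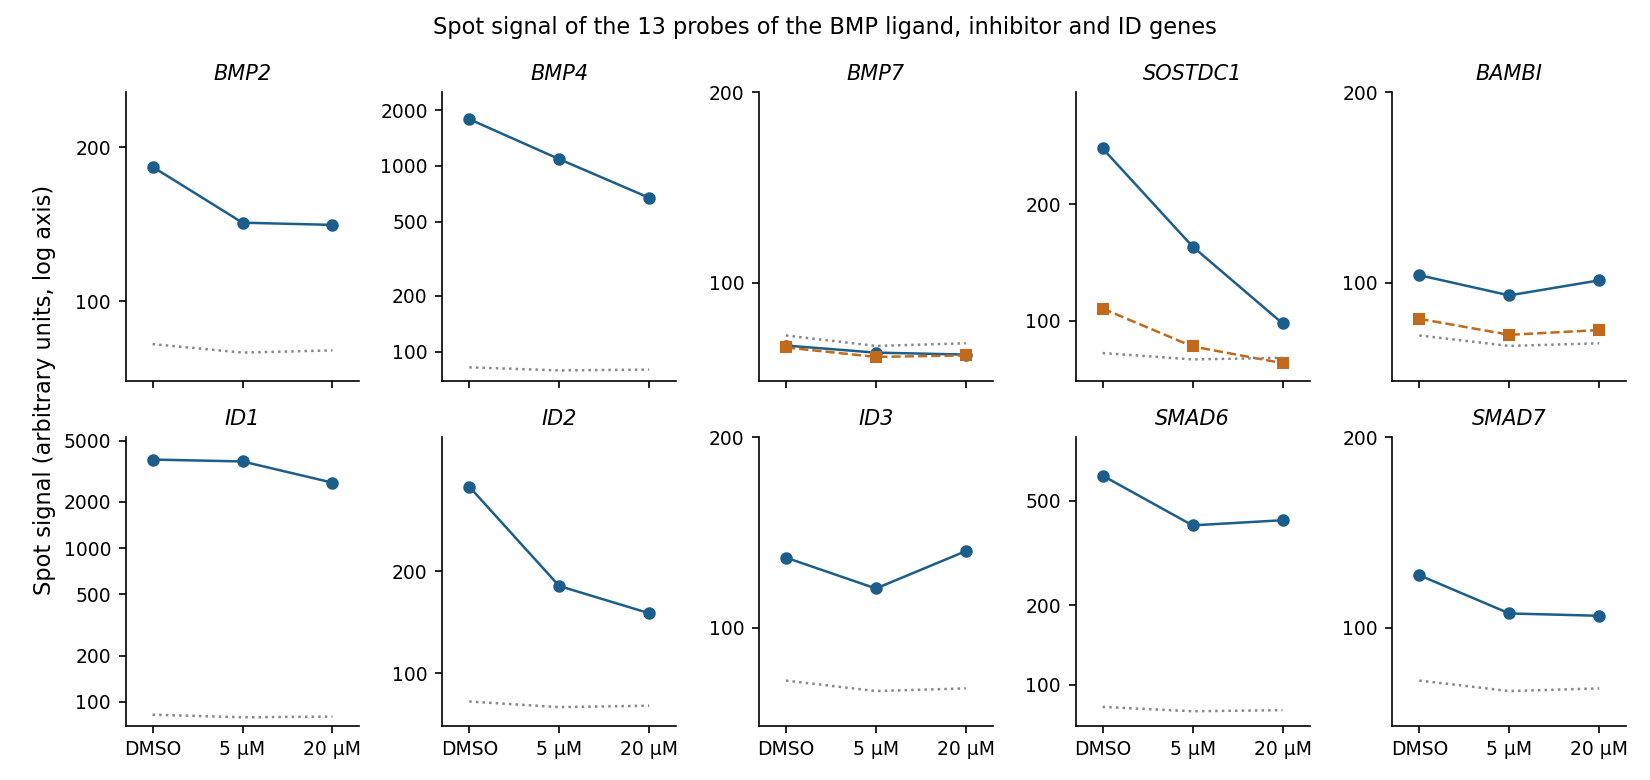
Spot signal, before background correction, of each probe of the 10 genes in DMSO, at 5 µM and at 20 µM, on a log axis whose range differs between panels. Blue circles are the probe that stands for the gene, orange squares a second probe, and the dotted line is the detection threshold. The signals are not normalized, and the DMSO array was the brightest. BMP4, SOSTDC1 and ID2 step down from DMSO to 5 µM to 20 µM, and on this scale so do BMP2, ID1 and SMAD7. Both BMP7 probes stay under the threshold.

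BMP4, a ligand made by colon cancer cells and by the stroma of the gut, was far above the threshold on each array. Its spot signal was 1787 with DMSO, 1089 with 5 µM and 674.5 with 20 µM. The normalized signal, which includes the constant, was 1534, 1201 and 656.0 in the same order. The level thus stepped down at each dose, with most of the drop on the log scale between 5 and 20 µM. The log2 ratio was -1.23 at 20 µM against DMSO, or 2.34-fold lower, which is 8.44 times the technical SD. Only 13 genes of those tested had a lower ratio. At 5 µM against DMSO it was -0.35, and at 20 against 5 µM it was -0.87. Scaling the arrays to equal medians in place of quantile normalization moved the 5 µM value to -0.60, more than 1.5 times as far from 0. Under median scaling the 1592 brightest genes, BMP4 among them, themselves had a median of -0.23 at 5 µM.

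BMP2, which like BMP4 signals through SMAD1, SMAD5 and SMAD9, was also detected on each array. Its spot signal was 183.1 with DMSO, 142.4 with 5 µM and 141.0 with 20 µM. The log2 ratio was -0.30 at 20 µM against DMSO, 2.04 times the technical SD, and -0.20 at 5 µM against DMSO. In the authors' deposited table the BMP2 ratios were -0.54 and -0.38 at 20 and 5 µM. Both treated arrays were lower than DMSO and differed from each other by -0.10, less than the technical SD. BMP7, a ligand known from kidney and bone, had signals of 78.96 and 79.51 on its 2 probes in DMSO, of 76.29 and 77.49 at 5 µM, and of 76.70 and 76.94 at 20 µM. All 6 signals lie below the detection threshold of their array, so BMP7 has only a bound and no ratio.

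SOSTDC1, a secreted protein that binds BMPs and also acts on Wnt co-receptors, had the lowest ratio of the set. The probe that stands for the gene had a spot signal of 279.2 with DMSO, 155.6 with 5 µM and 98.45 with 20 µM. Its normalized signal was 229.0, 140.7 and 74.15. The log2 ratio was -1.63 at 20 µM against DMSO, or 3.09-fold lower and 11.2 times the technical SD, and 2 of the genes tested had a lower one. At 5 µM against DMSO it was -0.70 and at 20 against 5 µM it was -0.92. The 20 µM signal stands close to the empty spots of that array, so the size of the ratio depends on how the background is handled. With a constant of 16 in place of 50 it became -2.28, and in the authors' deposited table, where the values are 94.46, 45.4 and 11.1, it was -3.09, and the 5 µM ratio was -1.06.

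The second SOSTDC1 probe went the same way. Its spot signal was 107.5 with DMSO, 85.77 with 5 µM and 77.66 with 20 µM, where it was not detected. Its log2 ratio at 5 µM against DMSO was -0.32, and at 20 µM the signal was at least 1.4-fold lower than in DMSO. Both probes therefore had their highest signal in DMSO and their lowest at 20 µM.

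BAMBI, a receptor without a kinase domain that blocks BMP and TGF-beta receptor pairs, is a known target of both BMP and Wnt signals. The probe that stands for it had a spot signal of 102.7 with DMSO, 95.43 with 5 µM and 100.8 with 20 µM. The log2 ratio was 0.054 at 20 µM against DMSO and -0.0040 at 5 µM against DMSO. A second probe stood at 87.63, 82.67 and 84.13, with ratios of -0.012 and -0.019 at 20 and 5 µM against DMSO. With median scaling both ratios of the second probe turned, to 0.033 and 0.057, and in the authors' deposited table the first probe stood at 0.21 at 20 µM. All 4 ratios as first given are within the technical SD, on signals close to the threshold, where a difference may not be detectable.

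The 3 ID genes did not share a pattern. ID2, which in the gut is known as a Wnt as well as a BMP target, had a spot signal of 354.7 with DMSO, 180.7 with 5 µM and 150.2 with 20 µM, and a normalized signal of 297.4, 169.1 and 127.1. Its log2 ratio was -1.23 at 20 µM against DMSO, 2.34-fold lower and 8.44 times the technical SD, and 12 of the genes tested had a lower one. At 5 µM against DMSO the ratio was already -0.81, with 4 of 16075 genes lower. Unlike BMP4, ID2 had most of its difference at the lower dose.

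ID1, the ID gene most used as a readout of BMP signalling, was bright on all 3 arrays. Its spot signal was 3773 with DMSO, 3668 with 5 µM and 2669 with 20 µM. After normalization for the brighter DMSO array the signal was 3298, 4108 and 2626, so that 5 µM stood highest. The log2 ratio was 0.32 at 5 µM against DMSO, 2.86 times the technical SD, and -0.33 at 20 µM against DMSO. Between the doses, 20 against 5 µM, it was -0.65, or 1.56-fold lower, and 94 of 16036 genes were lower. The direction at 5 µM depended on the processing: the local background column turned it to -0.63. Median scaling left 0.083 at 5 µM, less than the technical SD, while the ratio between the doses was then -0.51.

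ID3 stayed close to its DMSO level. Its spot signal was 129.0 with DMSO, 115.3 with 5 µM and 132.1 with 20 µM. The log2 ratio was 0.16 at 20 µM against DMSO, 1.08 times the technical SD, and -0.019 at 5 µM against DMSO. In the authors' deposited table the 20 µM ratio was 0.32.

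**Figure D2:**
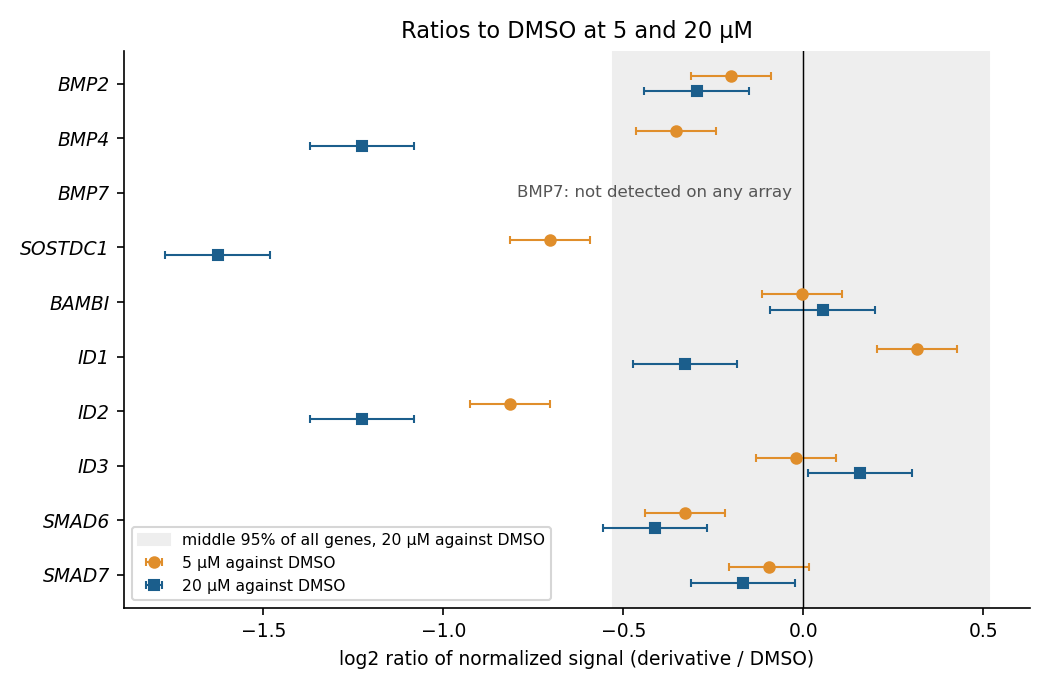
Log2 ratios of normalized signal at 5 µM (orange circles) and 20 µM (blue squares) against DMSO, 1 array each, for the probe that stands for each gene. Bars are plus and minus the technical SD of a single ratio (0.111 at 5 µM and 0.145 at 20 µM), and the grey band holds the middle 95% of all genes at 20 µM, between -0.53 and 0.52. SOSTDC1, BMP4 and ID2 lie left of the band at 20 µM, and ID1 changes side between the doses.

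SMAD6 and SMAD7 bind activated receptors or compete with receptor SMADs, and both are known to be induced by the signals they restrain. SMAD6 had a spot signal of 621.9 with DMSO, 402.7 with 5 µM and 421.2 with 20 µM. Its log2 ratio was -0.41 at 20 µM against DMSO and -0.33 at 5 µM against DMSO, 2.84 and 2.96 times the technical SD. At 5 µM, 1.75% of all genes stood at or below that ratio. Both treated arrays were lower than DMSO, and the doses differed by -0.084, less than the technical SD. Median scaling gave -0.53 at 5 µM against DMSO, and the local background column turned the ratio to 0.23. SMAD7 had a spot signal of 121.0 with DMSO, 105.3 with 5 µM and 104.4 with 20 µM, with ratios of -0.17 and -0.096 at 20 and 5 µM against DMSO, 1.15 and 0.867 times the technical SD. In the authors' deposited table the SMAD7 ratios were -0.44 and -0.26, and with the local background column they turned to 0.035 and 0.057.

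At 5 µM against DMSO, 8 of the 9 genes were below 0, as were 47.9% of all genes, and 0 of the 9 genes were at least 2-fold apart; over all genes 0.056% of 16075 were. At least 1.5-fold lower stood ID2 and SOSTDC1, where 0.0871% of all genes did. Neither stayed past 1.5-fold with the local background column, which gave ID2 -0.34 and SOSTDC1 -0.011, and SOSTDC1 stood at -0.51 with the mean of its detected probes. Between 20 and 5 µM, 0 of the 9 were at least 2-fold apart, as were 0.224% of 16036 genes, and BMP4, SOSTDC1 and ID1 were at least 1.5-fold lower at 20 µM, as were 0.886% of all genes. Normalized signal went down at both steps, DMSO to 5 µM and 5 to 20 µM, for 6 of the 9 genes: BMP2, BMP4, SOSTDC1, ID2, SMAD6 and SMAD7. It did so for 23.0% of the 15920 genes detected on all arrays, and 0 of the 9 went up at both steps, against 24.5% of all genes. For BMP2, SMAD6 and SMAD7 the second step, of -0.097, -0.084 and -0.070, was less than the technical SD of 0.116. That of SMAD6 turned to 0.015 with median scaling. The genes were picked with these values known, so nothing is read from the contrast with all genes. Both doses share the DMSO array.

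BMP4 and ID2 had equal ratios at 20 µM but not at 5 µM with the processing used here. Their 20 µM ratios against DMSO differed by less than 0.001, while their 5 µM ratios differed by 0.46. The SD for a difference of a pair of single ratios was 0.157 at 5 µM. That SD rests on probe pairs of all signal levels and is too small for genes as bright as these. The 5 µM ratio was 28.8% of the 20 µM ratio for BMP4, 43.2% for SOSTDC1 and 66.4% for ID2. The share of ID2 was the highest of the 3 under each of the other background corrections and scalings tried and in the authors' deposited table, between 63.4% and 71.9%, while that of BMP4 lay between 28.5% and 44.0%. The equal 20 µM ratios depended on the processing: BMP4 and ID2 stood at -1.35 and -1.75 in the authors' deposited table, at -1.2702 and -1.5001 with a constant of 16, and at -2.66 and -0.54 with the scanner files' local background column. At 5 µM that column also turned their order, with BMP4 at -0.97 and ID2 at -0.34. The 5 µM ratios of BMP4 and ID2 came closer, at -0.60 and -0.94, with median scaling. They came closer too, at -0.43 and -0.71, in the authors' table with a constant of 50. They lay further apart in that table without it, at -0.46 and -1.12, and with a constant of 16, at -0.36 and -0.96. None of these differences has a replicate check.

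**Figure D3:**
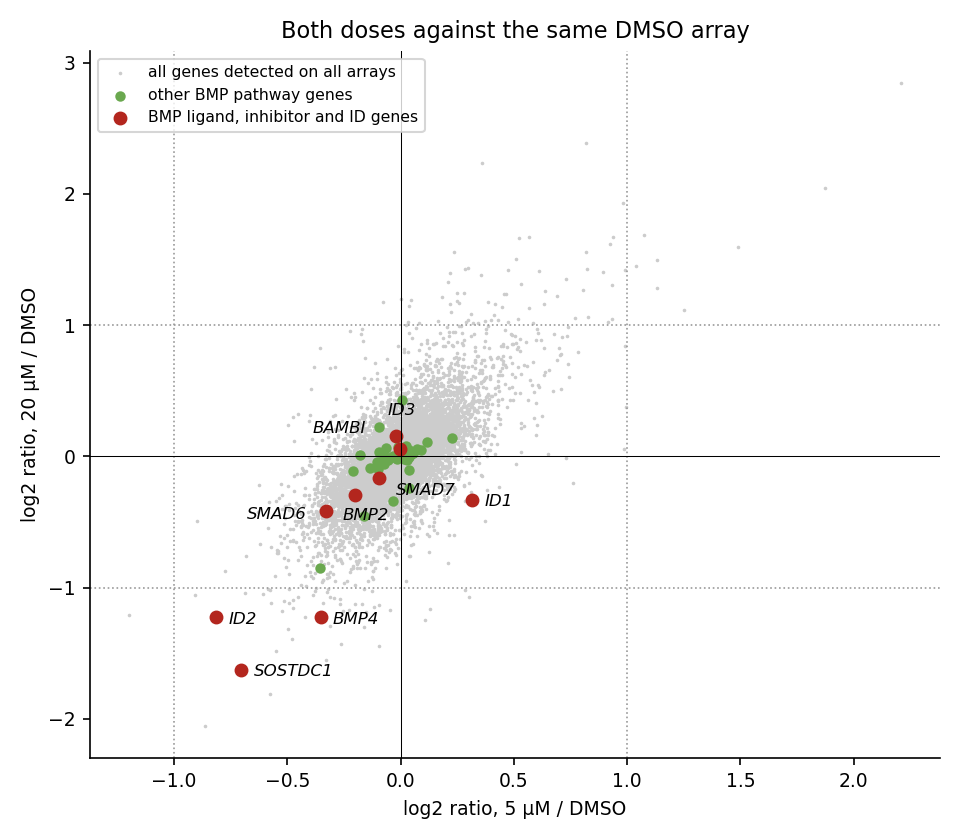
Log2 ratio at 20 µM against DMSO (vertical axis) and at 5 µM against DMSO (horizontal axis) for the 15920 genes detected on all arrays; both axes share the DMSO array. Dotted lines mark 2-fold. Pairs of values are given with 5 µM first and 20 µM second. ID2 at -0.81 and -1.23, BMP4 at -0.35 and -1.23, and SOSTDC1 at -0.70 and -1.63 lie at the lower edge. ID1 lies at the lower right, and most other BMP pathway genes lie near the middle. The lowest green point is RUNX2, at -0.36 and -0.85.

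The genes whose pair of ratios came nearest to these 3 were taken from the 15920 genes, by distance on the log2 scale over 3 arrays. Nearest to BMP4 were PTPRO, LDHA and CENPE, a mitotic kinesin, at distances between 0.0697 and 0.108. Nearest to SOSTDC1 were HMMR, DLGAP5 and NDC80, which act in cell division, at between 0.209 and 0.327. Nearest to ID2 were the histone gene H2AC6, ZC3H4 and SLITRK6, at between 0.193 and 0.265. None of the nearest genes belonged to the 10, of which 9 were among the 15920 genes compared. With so few, almost any set would give none, so nothing is read from it.

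The rest of the pathway was read from a list of 64 further genes. Of these, 5 had no named probe and are not analysed here, among them the type I receptor gene BMPR1A and the receptor SMAD gene SMAD5. Another 9 were detected on no array, among them the antagonists GREM1, CHRDL1 and CHRDL2, the receptor SMAD SMAD9, and ID4. The 4 genes BMPR1B, BMPER, TCF4 and TGFB3 were detected on some arrays, and 46 on all 3. At 20 µM against DMSO, 0 of these 46 were at least 2-fold apart, against 0.766% of all genes, and 1, RUNX2, was at least 1.5-fold lower, where 1.84% of all genes were and 3.78% were 1.5-fold apart in either direction. The median log2 ratio was 0.015, beside 0.0071 over all genes. At so small a share over all genes, 0 of 46 says little about the list. Many of the 46 were also dim, and the added constant holds ratios of dim genes near 0. With the detection threshold doubled, only 10 genes of the list could be compared at 20 µM against DMSO, with a median of -0.057. At 5 µM against DMSO 48 genes could be compared, with 0 at least 1.5-fold apart, beside 0.473% of all genes, and a median of 0.0037, beside 0.0043 over all genes. Between 20 and 5 µM 0 of 46 were at least 1.5-fold apart, beside 1.8% of all genes.

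Of the further ligands, 10 of 11 were detected, with signals up to 103.9 in DMSO, and their 20 µM ratios lay between -0.058 for GDF2 and 0.11 for BMP15. BMP5 stood at 0.050. The spot signals of all 10 are close to the threshold, where a difference may not be detectable. In the authors' deposited table their 20 µM ratios lay between -0.29 for GDF2 and 0.97 for BMP15.

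Of the 6 receptors with a named probe, 5 were detected on all 3 arrays. BMPR2, the type II receptor for BMPs, had a spot signal of 300.2 with DMSO, 255.1 with 5 µM and 233.1 with 20 µM, and log2 ratios of 0.036 and -0.24 at 5 and 20 µM against DMSO. ACVR1, a type I receptor, had signals of 272.3, 214.8 and 283.5 and ratios of -0.094 and 0.22. These receptors lay on opposite sides of 0 at 20 µM, each within 2 technical SDs. The activin receptors ACVR2A and ACVR2B, which also bind BMPs, stood at 0.0020 and 0.0084 at 20 µM, and ACVRL1 at 0.069. BMPR1B was detected in DMSO only, at 83.01. Among the co-receptors, ENG had a ratio of 0.060, RGMB of -0.094 and HJV of -0.027.

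SMAD1 carries the BMP signal from the receptors. Its spot signal was 502.0 with DMSO, 393.3 with 5 µM and 355.0 with 20 µM, with log2 ratios of -0.032 at 5 µM and -0.34 at 20 µM against DMSO, the second 2.34 times the technical SD. SMAD4 had signals of 135.2, 117.3 and 125.0 and ratios of -0.068 and -0.027. The array measures transcript and does not show whether the protein works. SMAD9 was not detected.

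Secreted antagonists other than SOSTDC1 lay near 0. Of 15 on the list, 7 were detected on all arrays. Their 20 µM ratios lay between -0.023 and 0.076, the second that of CHRD, with FST at 0.064 and FSTL3 at 0.033. Apart from CHRD, their DMSO signals lay between 85.03 for FSTL3 and 101.2 for FSTL1, close to the threshold, where a difference may not be detectable. In the authors' deposited table the 20 µM ratios of the 7 lay between -0.18 for TWSG1 and 0.44 for FSTL3. CHRD encodes chordin, which binds BMPs outside the cell; its signal was 133.7 with DMSO, 122.2 with 5 µM and 130.8 with 20 µM.

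Among the 6 intracellular brakes, 2 stood apart from the rest at 20 µM. SKIL, which encodes a SMAD corepressor, had a spot signal of 265.1 with DMSO, 223.0 with 5 µM and 315.6 with 20 µM, and ratios of 0.0048 and 0.43 at 5 and 20 µM against DMSO. TOB1, an antiproliferative protein that binds SMADs, had signals of 466.2, 339.4 and 309.3 and ratios of -0.16 and -0.45. SMURF2, which encodes a ubiquitin ligase for SMADs and receptors, stood at 0.23 and 0.14, and the other 3 lay between -0.089 and -0.0026 at 20 µM.

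RUNX2, a transcription factor that acts with SMADs in bone, was the 1 gene of the list at least 1.5-fold lower at 20 µM, and its 2 probes disagreed. One had a spot signal of 179.0 with DMSO, 128.0 with 5 µM and 102.2 with 20 µM, with log2 ratios of -0.36 and -0.85 at 5 and 20 µM against DMSO. The other stood at 106.6, 100.4 and 104.7, with ratios of 0.032 and 0.060. Both are annotated to the same transcript. With the mean of its detected probes the gene was no longer 1.5-fold apart. The other detected targets, MSX1 and ATOH8, had ratios of 0.031 and 0.0042 at 20 µM.

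The E proteins that ID proteins bind showed small ratios with the processing used here. TCF12 had a spot signal of 537.8 with DMSO, 375.6 with 5 µM and 441.5 with 20 µM, with ratios of -0.21 and -0.11 at 5 and 20 µM against DMSO. TCF3 stood at 0.028 at 20 µM, and TCF4, detected in DMSO and at 5 µM, had a ratio of -0.11 at 5 µM. The TCF4 signals, 88.6 with DMSO and 80.12 with 5 µM, lay close to the threshold. In the authors' deposited table its 5 µM ratio was -1.34. In the TGF-beta branch, 7 of 8 genes were detected on all arrays. Their 20 µM ratios lay between -0.10 for SMAD2 and 0.064 for TGFBR1, with SMAD3 at 0.035.

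**Figure D4:**
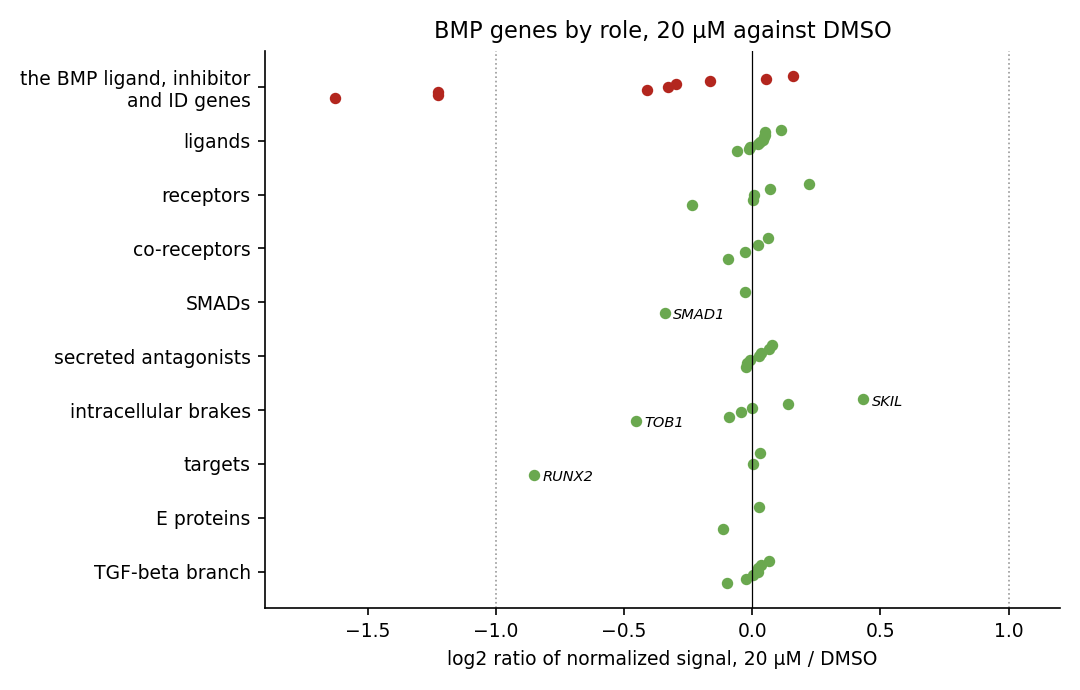
Log2 ratio of normalized signal at 20 µM against DMSO for each gene detected on both arrays, by role; red points are the 9 genes compared above, green points the other BMP pathway genes, and dotted lines mark 2-fold. The points of the ligands, co-receptors, secreted antagonists, E proteins and TGF-beta branch lie between -0.11 and 0.11, and named green points are those at least 0.3 from 0.

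The 20 µM calls rest on how background was taken off. In the 9 other settings tried the probe that stands for each gene kept the sign of its 20 µM ratio wherever it could be compared. Several of these settings could not turn a sign. Changing the detection filter left each ratio as it was, as did averaging detected probes for genes without a second probe. No background correction and the smaller constant keep the order of signals within an array, which sets the sign after quantile normalization. The authors' table must give the same sign with or without a constant. Only scalings other than quantile normalization, that table and averaged BAMBI probes could have turned one. The scanner files' local background column left SOSTDC1 at -0.038 and ID2 at -0.54, and gave BMP4 -2.66 and ID1 -3.33. It turned SMAD6, SMAD7, BAMBI and ID3. In that column brighter spots had a higher background, with a Spearman correlation over the spots of each array between 0.962 and 0.967.

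**Figure D5:**
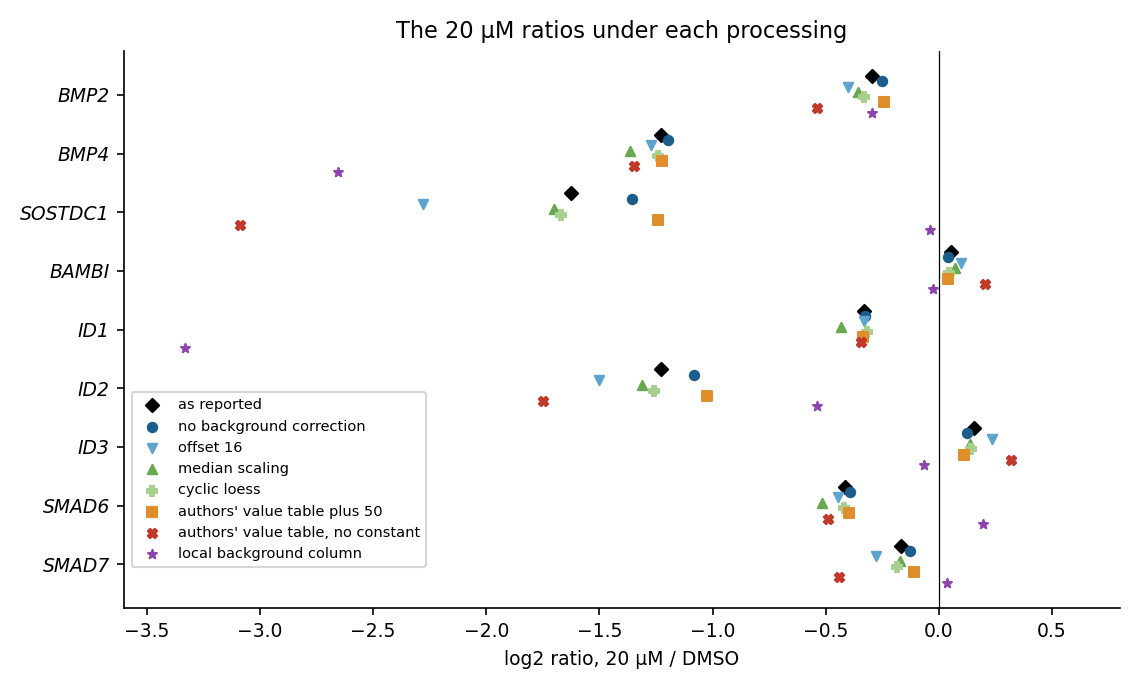
Log2 ratio at 20 µM against DMSO for each gene under the processing as reported (black diamonds) and 7 alternatives. For SOSTDC1 the values spread from -3.09 in the authors' deposited table to -0.038 with the local background column (purple stars), and the stars stand apart from the other symbols for BMP4, ID1 and ID2.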

How the data were processed

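Total RNA of 3 HT29 cultures was measured on 1-colour arrays. Per the file headers, the deposited scanner files hold the median intensity of each spot at 635 nm, with no background taken off, read at 3 gains. The authors also deposited a table of intensity values per probe, by steps not given in the sources used here, on a linear scale with equal array medians of 25. The titles give doses in mM and the treatment labels in µM, which was used. Spot signals were corrected with normexp (limma 3.58.1, R 4.3.3, offset 50), taken to log2 and quantile normalized over 24460 gene probes; the file's background column was kept as an alternative because it followed the spot signal. Detection used the mean plus 2 SD of 480 blank and negative spots, trimmed by 5% at each end. Platform symbols were updated by gene identifier to RefSeq; 21675 probes matched. The probe detected on most arrays, then the brightest, stood for a gene. No test was run. Ratios were checked on simulated data, with known folds put only on probes far above the threshold. That check does not cover dimmer genes such as SOSTDC1, BMP2, BAMBI, ID3 and SMAD7. The genes and lists were chosen with earlier results of these data known. Named were all probes of the 10 genes, all detected receptors and SMADs, the 3 largest 20 µM ratios of each other role, list genes at least 1.5-fold apart, and the 3 nearest genes of each 2-fold one. Protein sequences were not used here. Counts and ratios were made in Python 3.11.15 (pandas 2.3.3, numpy 2.4.6) and figures in matplotlib 3.10.9.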

Additional observations from a re-analysis of the deposited data

How the results depend on the processing

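No paired analysis was possible because each group had 1 array. The number of the 9 genes at least 2-fold lower at 20 µM against DMSO was 3, and 1 with the stricter detection filter, which left 3 genes to compare. With the local background column the genes past 2-fold were BMP4 and ID1 instead. At 5 µM against DMSO the number was 0, and 2 in the authors' value table with no constant. For 20 against 5 µM it was 0, and 1 in that table, 1 with an offset of 16 and 2 with the local background column. In the pathway list, the number at least 1.5-fold lower at 20 µM against DMSO was 1, and 0 with the local background column, with the mean of detected probes and with stricter detection; the number higher was 0, and 1 with the local background column and 1 in the authors' table with no constant. At 5 µM that table gave 2 higher and 3 lower and the local background column 2 lower, where the reported values gave 0; for 20 against 5 µM the table gave 1 higher and 1 lower, and the offset of 16 gave 1 lower, against 0. Over all genes at 20 µM against DMSO, 71 were at least 2-fold higher and 52 lower; the alternatives gave between 51 and 218 higher and between 32 and 254 lower, and the local background column 430 and 466. At 5 µM the 8 higher and 1 lower became between 4 and 46 and between 0 and 50, and 271 and 389; for 20 against 5 µM the 21 and 15 became between 17 and 149 and between 9 and 85, and 412 and 399. Apart from the local background column, signs turned for BAMBI at 5 µM against DMSO, between -0.034 and 0.025, and for SMAD6 between the doses, between -0.092 and 0.015; the second BAMBI probe also turned, between -0.038 and 0.033 at 20 µM, between -0.21 and 0.057 at 5 µM and between -0.025 and 0.18 between the doses. The dim signals of BAMBI, SMAD7, BMP2 and ID3 limit what can be seen of them.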
